A study of Homo sapiens with 6 samples.

Results

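The 9p21 genes described here are the 10 rows CDKN2A, CDKN2B, CDKN2B-AS1, MTAP, DMRTA1, IFNE, IFNB1, MIR31HG, KLHL9 and ELAVL2 of a table of 38167 genes, chosen by name as genes of a stretch of chromosome 9 that squamous carcinomas often lose. The RNA came from small extracellular vesicles shed by cells of Cal27, a human oral squamous carcinoma line, grown as spheroids. These were embedded for 14 days in stiff Matrigel (12 mg/mL, 3 libraries) or soft Matrigel (3 mg/mL, 3 libraries), a gel of basement membrane proteins, and no allele or other agent is named for either group. The data are counts of reads per gene, which total 2697502 to 2977837 in the stiff libraries and 2445498 to 2545385 in the soft ones. All libraries come from this 1 line, and the labels call the libraries of a group biological replicates. Soft replicate 3 stood apart from the other soft libraries, with a chi-square per degree of freedom over all genes of 3.86 and 2.86, where the other pairs within a group had 1.53 to 1.70.

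CDKN2A encodes from overlapping reading frames both p16INK4a, which inhibits the cyclin D kinases CDK4 and CDK6 and so keeps the retinoblastoma protein active, and ARF, which holds MDM2 off p53. CDKN2B encodes p15INK4b, a neighbouring inhibitor of the same kinases, and CDKN2B-AS1 (ANRIL) is a long non-coding RNA read across it on the opposite strand. When a tumour deletes this stretch on both chromosomes, reads over its exons disappear from DNA and from RNA, and MTAP, the first enzyme of methionine salvage, is often lost with it.

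All 10 genes were counted in all 6 libraries. In the table, 34 genes lie between IFNB1 and ELAVL2 by RefSeq coordinates (GRCh38). None of the 34 was at 0 in every library, and 1 was at 0 in any library. That gene was MIR31, a microRNA precursor of 71 bases, with 1, 1 and 2 counts in stiff libraries and 3, 0 and 1 in soft libraries. Its mature product is shown because MIR31HG is its host gene; capitals mark the seed, bases 2 to 8, in the RefSeq sequence (GRCh38.p14, minus strand, chr9:21512158-21512178).
hsa-miR-31-5p: aGGCAAGAugcuggcauagcu

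Genes without a read were rare throughout the table. None of 736 protein-coding genes of chromosome 9 with a known length had a 0 in any library, against 44 of 18008 on all autosomes. The 13 squamous epithelial markers were all counted, with a median of 18.2 ± 2.69 counts per kb of exon in stiff and 17.7 ± 1.23 in soft libraries (SD, n = 3 each). The 14 markers of blood, endothelial, stromal, muscle and liver cells were also all counted, with a median of 10.4 ± 1.08 per kb in stiff and 11.5 ± 1.06 in soft, and 0 of the 14 had a 0 in any library. PTPRC, the leukocyte marker CD45, averaged 27.8 CPM (counts scaled to a common library size) in stiff and 32.0 CPM in soft libraries. The summed level of the 13 epithelial markers was 442 to 464 CPM in stiff and 405 to 423 CPM in soft, and that of the 14 other markers 511 to 535 CPM in stiff and 511 to 570 CPM in soft. Genes of cell types that the line does not represent were thus counted too, and what part of any count below came from a transcript of its gene was not tested.

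Levels between genes are compared per kb of exon, with merged GENCODE release 29 exons as the length, and set against the median of 983 chromosome 9 genes in the same library (a ratio). That median was 22.2 ± 1.49 counts per kb in stiff and 23.6 ± 0.835 in soft libraries (SD, n = 3 each). Chromosome 9 itself stood high. Against autosomal genes of like GC content (within 2 percentage points), its median ratio was 1.35 ± 0.00930 in stiff and 1.37 ± 0.00990 in soft, rank 1 of the 22 autosomes.

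CDKN2A (chr9:21967753-21995301, minus strand, 10 merged exons of 4329 bp) had 120, 125 and 136 counts in the stiff libraries against 129, 158 and 120 in the soft ones. The groups overlapped in counts, with a soft library both at the top and level with the lowest stiff one. In CPM, CDKN2A averaged 49.3 ± 2.40 in stiff and 49.9 ± 6.41 in soft (SD, n = 3 each), and the groups overlapped too. With library totals alone as the scale they did not overlap, with stiff lower. The log2 fold change of stiff over soft for CDKN2A was −0.02 ± 0.13 (SE; 95% interval −0.27 to 0.23; edgeR quasi-likelihood test with Benjamini-Hochberg adjustment, adjusted p = 0.984). No change was detectable, and the interval covers both directions. In bulk vesicle RNA, fewer vesicles of a kind and less RNA in each cannot be told apart. Transcripts for p16INK4a and ARF share exons, and the counts give them as 1 value. At 29.3 counts per kb in stiff and 31.3 in soft, CDKN2A was the second of the 10 members, at 1.32 times the chromosome 9 median in each group and at percentiles 61.34 to 72.02 of chromosome 9 genes over the 6 libraries. This ratio depends on the length used. With the longest transcript (1283 bp) in place of all merged exons, the mean ratio over 6 libraries was 3.68. With merged exons and autosomal genes of like GC as the reference it was 1.03.

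CDKN2B (chr9:22002903-22009363, minus strand, 2 exons of 4058 bp) had 51, 68 and 75 counts in stiff libraries and 68, 82 and 117 in soft libraries. Soft replicate 3 was the highest, and the groups overlapped. The means were 25.002 ± 3.80 CPM in stiff and 32.9 ± 9.98 CPM in soft (SD, n = 3 each). The log2 fold change was −0.39 ± 0.17 (95% interval −0.72 to −0.06), which did not pass the adjustment over all genes (edgeR unadjusted p = 0.0219, adjusted p = 0.3995). Without soft replicate 3 the log2 fold change was −0.12. CDKN2A and CDKN2B resemble each other in sequence, so reads of their shared stretch are uncertain between them.

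CDKN2B-AS1 (chr9:21994778-22121097, plus strand) had 65, 59 and 70 counts in stiff and 75, 78 and 58 in soft libraries, or 25.2 ± 2.61 CPM in stiff and 25.9 ± 3.49 CPM in soft (SD, n = 3 each). Stiff over soft, this came to a log2 fold change of −0.04 ± 0.18 (edgeR adjusted p = 0.969), and the groups overlapped. Its exons overlap those of CDKN2A on the other strand over 341 bp, which is 7.88% of CDKN2A exon sequence and 4.25% of its own. The strand setting of the counting is not given in the sources used here, so reads in that overlap cannot be assigned to either.

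MTAP (chr9:21802543-21937651, plus strand) had 45, 57 and 45 counts in stiff and 60, 48 and 43 in soft libraries. The means were 19.0 ± 2.19 CPM in stiff and 18.5 ± 3.06 CPM in soft, with overlapping groups (log2 fold change 0.04 ± 0.21, edgeR adjusted p = 0.981). Per kb MTAP was the lowest member, at 0.151 ± 0.0157 times the chromosome 9 median in stiff and 0.146 ± 0.0226 in soft (SD, n = 3 each). Its 14 merged exons add up to 14617 bp because GENCODE holds many transcripts of it, and the annotation used for the counts is not given in the sources used here. With the longest transcript, 7557 bp, the mean ratio over 6 libraries was 0.236, still the lowest of the 10. With merged exons and autosomal genes of like GC as the reference it was 0.330. The MTAP counts were 43 or more in every library.

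**Figure D1:**
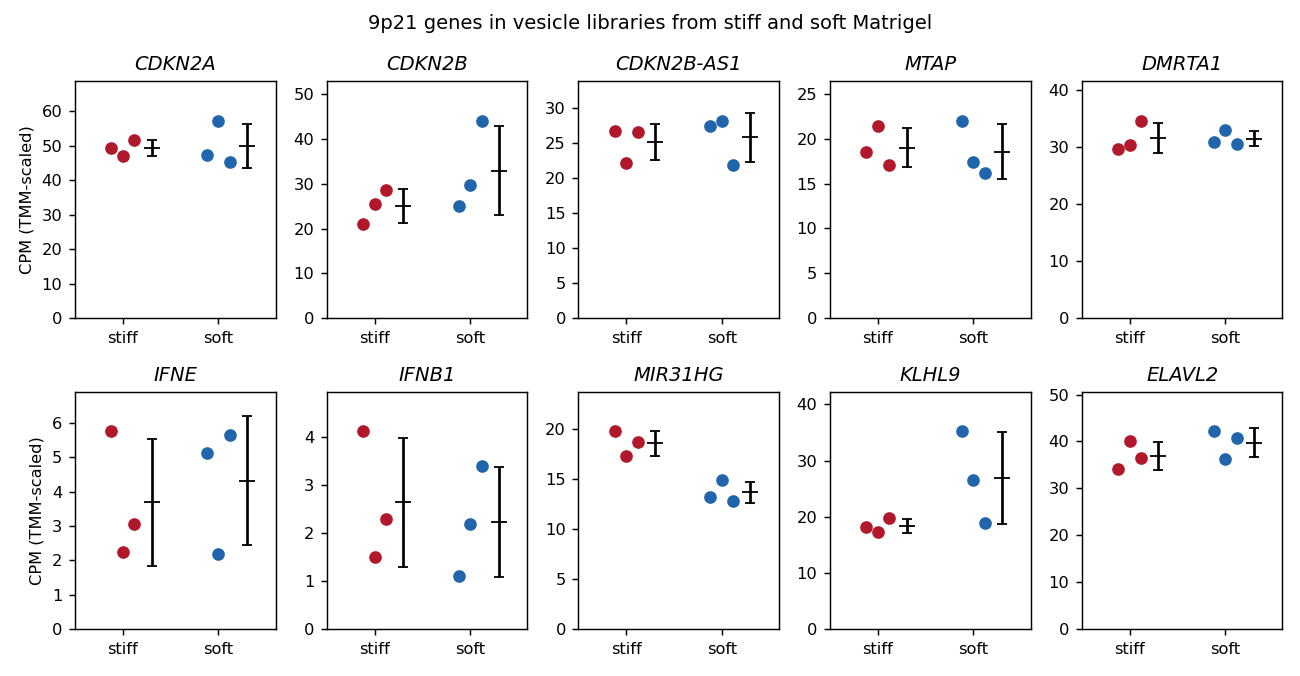
CPM (y axis, scaled by TMM) of each 9p21 gene in the 3 stiff (left, red) and 3 soft (right, blue) libraries, with the mean and SD beside each group. MIR31HG is the 1 gene whose groups do not overlap on this scale. Soft replicates 2 and 3 for CDKN2B, and soft replicates 1 and 2 for KLHL9, lie above every stiff library.

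MIR31HG and KLHL9 had the largest log2 fold changes of the tested members, in opposite directions, and neither passed the adjustment. MIR31HG, a long non-coding RNA (chr9:21455642-21559669, minus strand), had 48, 46 and 49 counts in stiff and 36, 41 and 34 in soft libraries. With TMM scaling all stiff libraries lay above all soft ones, at 18.5 ± 1.24 CPM in stiff and 13.6 ± 1.08 CPM in soft (SD, n = 3 each). The log2 fold change was 0.44 ± 0.22 (95% interval 0.00 to 0.88; edgeR unadjusted p = 0.0491, adjusted p = 0.523). KLHL9 (chr9:21329671-21335380, minus strand), which encodes a substrate adaptor of the CUL3 ubiquitin ligase, had 44, 46 and 52 counts in stiff and 96, 73 and 50 in soft libraries. Soft replicate 1 was the highest, and soft replicate 3 lay within the stiff range. The means were 18.4 ± 1.28 CPM in stiff and 26.8 ± 8.19 CPM in soft (SD, n = 3 each), with a log2 fold change of −0.55 ± 0.19 (95% interval −0.93 to −0.17; edgeR unadjusted p = 0.00473, adjusted p = 0.225). Without soft replicate 1 its log2 fold change was −0.30, and without soft replicate 3 it was −0.74.

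Upstream windows of 120 bases are shown for 4 of the members, chosen to span their base composition and to hold no annotated UTR; capitals mark each CG (read the same on both strands), and the sequences are RefSeq's (GRCh38.p14, minus strand, 5′ to 3′, ending at the base before the start of transcription).
CDKN2A, start of the ARF transcript, chr9:21995325-21995444: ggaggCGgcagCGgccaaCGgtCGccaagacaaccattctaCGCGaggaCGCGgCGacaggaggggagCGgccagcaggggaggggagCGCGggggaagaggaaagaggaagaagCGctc
MIR31HG, chr9:21559799-21559918: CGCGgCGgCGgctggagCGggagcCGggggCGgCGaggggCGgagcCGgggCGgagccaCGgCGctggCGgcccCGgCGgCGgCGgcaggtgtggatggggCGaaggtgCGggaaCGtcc
KLHL9, chr9:21335405-21335524: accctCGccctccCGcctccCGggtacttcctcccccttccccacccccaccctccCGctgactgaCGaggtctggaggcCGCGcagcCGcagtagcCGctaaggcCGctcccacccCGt
IFNE, chr9:21482314-21482433: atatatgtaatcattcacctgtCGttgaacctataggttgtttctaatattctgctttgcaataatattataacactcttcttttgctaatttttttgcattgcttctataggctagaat

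The CDKN2A window stands at the start furthest upstream among those listed for the gene. No transcript is named for that start, so its ARF label is uncertain. The windows hold 13 CG for CDKN2A, 21 for MIR31HG, 11 for KLHL9 and 1 for IFNE, against a median of 6 over 35116 promoter windows of the same length, of which 86.5% held at least 1. GC content was 69.2%, 84.2%, 73.3% and 29.2% in that order. Per-kb levels of chromosome 9 genes were also set against the GC content of the transcript itself, which can part from that of the window: KLHL9 had 39.3% in its transcript. The median level was 46.5 ± 3.79 counts per kb in stiff and 47.3 ± 1.39 in soft libraries (SD, n = 3 each) for 176 genes with a transcript GC content of 60% and over, and 12.8 ± 0.298 in stiff and 14.4 ± 0.649 in soft for 126 genes under 40%. Of the members, CDKN2A (61.4%) and MIR31HG (56.9%) had the highest transcript GC and the highest per-kb levels, and the other 8 had a GC content of 35.5% to 44.6%.

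**Figure D2:**
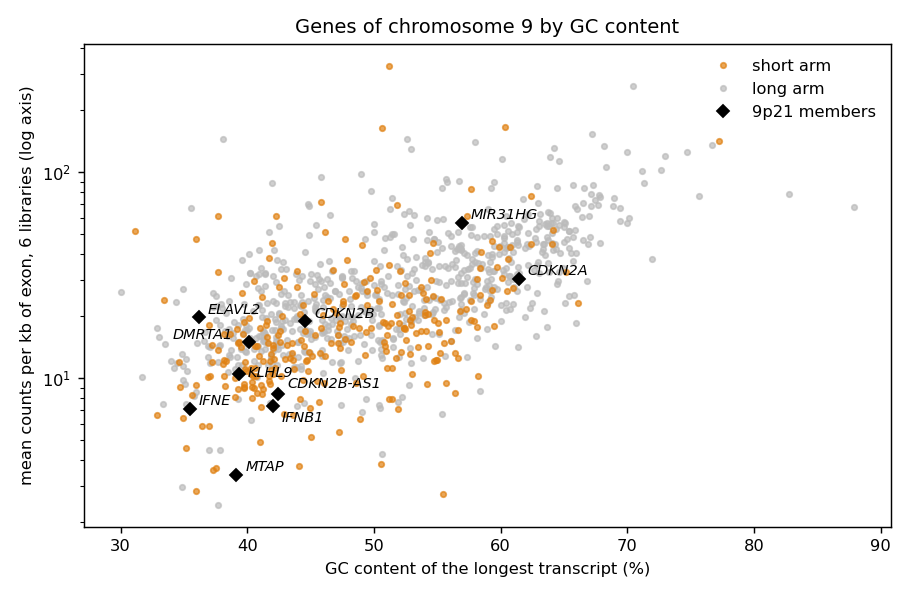
Mean counts per kb of exon over 6 libraries (y axis, log scale) against GC content of the longest transcript (x axis, percent) for genes of chromosome 9, with short-arm genes in orange, long-arm genes in grey and the 10 members as black diamonds. CDKN2A and MIR31HG sit at the GC-rich end and MTAP, at 3.40 counts per kb, is the lowest member.

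The interferon genes IFNB1 and IFNE gave the lowest counts. IFNB1, the antiviral interferon beta (chr9:21077105-21077963, minus strand), had 10, 4 and 6 counts in stiff and 3, 6 and 9 in soft libraries, and IFNE, an interferon of epithelia of the reproductive tract (chr9:21480839-21482313, minus strand), had 14, 6 and 8 in stiff and 14, 6 and 15 in soft. Groups overlapped for both. IFNB1 fell under the filter on low counts and was not tested, and IFNE had a log2 fold change of −0.24 ± 0.43 (95% interval −1.09 to 0.61; edgeR adjusted p = 0.918). Over all 6 libraries IFNB1 had 38 counts, with an exact 95% Poisson interval of 26.9 to 52.2 that covers counting error only. Both are genes of 1 exon, as is KLHL9, and their spans in GENCODE and RefSeq differ by 0, 20 and 30 bp for IFNE, IFNB1 and KLHL9, so their per-kb levels hardly depend on the annotation. IFNB1 had 7.76 counts per kb in stiff and 6.98 in soft, IFNE had 6.33 in stiff and 7.91 in soft, and KLHL9 had 8.29 in stiff and 12.8 in soft. The reference was 85 chromosome 9 genes of 1 merged exon of at least 500 bp, not matched for GC. Their median was 18.4 ± 1.52 in stiff and 18.7 ± 1.45 in soft (SD, n = 3 each). Against autosomal genes of like GC, IFNB1 had a ratio of 0.70 ± 0.35 in stiff and 0.59 ± 0.30 in soft. IFNE had 0.72 ± 0.35 in stiff and 0.81 ± 0.35 in soft. KLHL9 had 0.829 ± 0.0635 in stiff and 1.18 ± 0.37 in soft.

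Other interferon genes of the cluster stood at a like level. The 14 interferon alpha and omega genes, which lie between IFNB1 and MIR31HG and are switched on by viruses, together had 126, 133 and 159 counts in stiff and 143, 140 and 139 in soft libraries. Per kb that was 8.90 ± 1.11 in stiff and 8.99 ± 0.133 in soft (SD, n = 3 each), and with RefSeq lengths 10.6 ± 1.32 in stiff and 10.7 ± 0.158 in soft. With GENCODE lengths IFNA6 was the lowest of them at 3.67 counts per kb and IFNA21 the highest at 14.97, as means over 6 libraries. IFNA6 has 1544 bp in GENCODE and 570 bp in RefSeq, so its place as the lowest depends on the annotation. The interferon alpha genes are near-identical copies and are uncertain one by one.

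DMRTA1 and ELAVL2 lie on the other side of CDKN2B. DMRTA1, a DM-domain transcription factor (chr9:22446841-22455740, plus strand), had 72, 81 and 91 counts in stiff and 84, 91 and 81 in soft libraries, with means of 31.5 ± 2.69 CPM in stiff and 31.4 ± 1.33 CPM in soft (log2 fold change 0.01 ± 0.16, edgeR adjusted p = 0.997). ELAVL2, a neuronal RNA-binding protein (chr9:23690104-23826337, minus strand), had 83, 107 and 96 counts in stiff and 115, 100 and 108 in soft libraries, or 36.9 ± 3.04 CPM in stiff and 39.7 ± 3.11 CPM in soft (log2 fold change −0.10 ± 0.14, edgeR adjusted p = 0.889). Groups overlapped for both. ELAVL2 had 0.834 times the chromosome 9 median in stiff and 0.888 in soft, and 2.02 ± 0.178 in stiff and 2.11 ± 0.185 in soft times that of autosomal genes of like GC (SD, n = 3 each). The RefSeq gene of ELAVL2 runs 24264 bp further at the 5′ side, so its exon length may differ and these ratios are uncertain.

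The order of the per-kb ratios ran from MIR31HG (2.89 in stiff and 2.10 in soft) through CDKN2A, ELAVL2, CDKN2B, DMRTA1, KLHL9, CDKN2B-AS1, IFNB1 and IFNE to MTAP. MIR31HG lay above CDKN2A, and CDKN2A above ELAVL2, in all 6 libraries with no overlap of their ranges. Every later pair of neighbours had ranges that overlapped. The place of MIR31HG rests on a length of 745 bp. Its RefSeq gene runs 1374 bp further at the 3′ side, so its ratio may be too high. Of its exon sequence, 303 bp (40.7%) overlap exons of IFNWP19 on the other strand, which has no row in the table. How reads in that overlap were assigned is not known, so the MIR31HG counts and fold change are uncertain too. With the whole gene span as length, the ratio of MIR31HG was 0.0964 as a mean over 6 libraries.

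**Figure D3:**
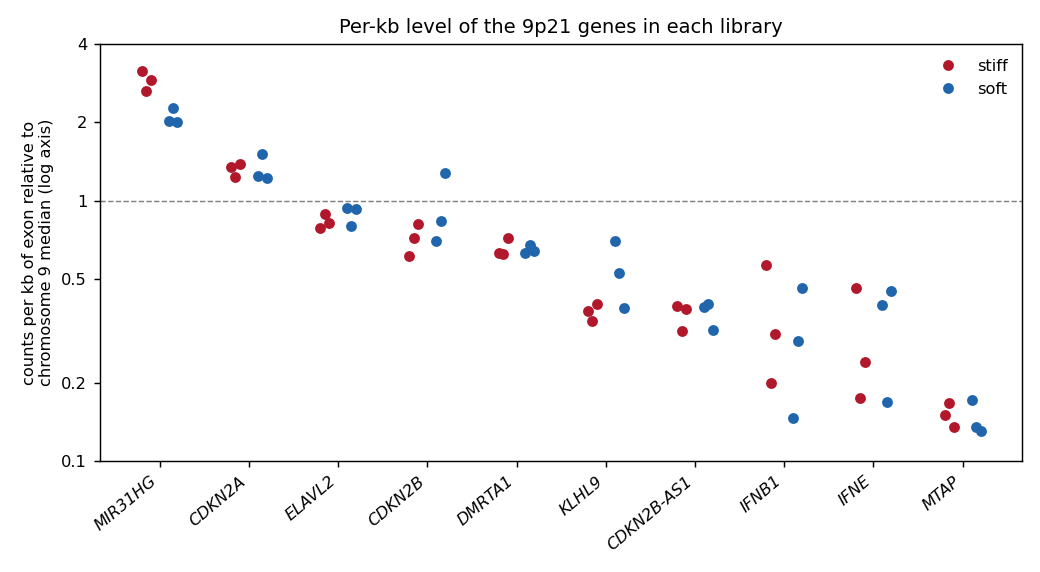
Counts per kb of exon relative to the chromosome 9 median of the same library (y axis, log scale) for each 9p21 gene, with stiff libraries in red to the left and soft libraries in blue to the right of each. The ratios run from above 2 for MIR31HG to under 0.2 for MTAP, and the dashed line marks the chromosome 9 median.

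Of the 10 members 9 were tested and 0 passed the threshold (edgeR adjusted p under 0.05), where 0.451% of 31074 genes tested did (0.286% higher and 0.164% lower in stiff). At an unadjusted edgeR p under 0.05 stood 3 of the 9, CDKN2B, KLHL9 and MIR31HG, against 9.51% of all genes tested. That count was 1 without stiff replicate 1, without soft replicate 1 or without soft replicate 3, 2 with limma-voom and 1 with DESeq2. DESeq2 without its filter on mean count called 0 of 10, limma-voom 0 of 9 and DESeq2 with its filter gave none of them an adjusted p. The groups of 1 of the 9, MIR31HG, did not overlap in CPM, with stiff higher, against 14.1% of all genes tested (7.38% with stiff higher and 6.76% with stiff lower). The median log2 fold change was −0.04 over the 9 members and −0.0048 over all genes tested, with 3 of 9 above 0. Among tested genes with a known transcript GC content the median was −0.0417 under 40% and −0.0233 at 40% to 45%. It was 0.1085 at 60% and over, and the 10 members had a median GC content of 41.07%. As a share of all counts, the 10 genes took 0.0205%, 0.0207% and 0.0211% in stiff and 0.0278%, 0.0270% and 0.0249% in soft libraries, with exact 95% binomial intervals of 0.0188% to 0.0222% in stiff replicate 1 and 0.0258% to 0.0300% in soft replicate 1 that cover counting error only. All 3 stiff libraries lay below all 3 soft ones on this scale. When only the totals set the scale, the typical gene had a log2 fold change of −0.27 and CDKN2A one of −0.29. On this scale CDKN2A had 44.5, 43.1 and 45.7 CPM in stiff and 52.75, 62.6 and 47.1 CPM in soft, without overlap. The groups of CDKN2B, DMRTA1, KLHL9 and ELAVL2 did not overlap either, all with stiff lower. The share of all genes without overlap on this scale was not computed. With that scaling 4194 of 31074 genes tested passed the threshold, 4163 of them lower in stiff. Among these were 2 of the 9 members, CDKN2B (−0.65, edgeR adjusted p = 0.00638) and KLHL9 (−0.82, adjusted p = 0.00265), both lower in stiff. MIR31HG had a log2 fold change of 0.17 with that scaling (adjusted p = 0.612), and its groups then overlapped, at 17.8, 15.9 and 16.5 CPM in stiff and 14.7, 16.2 and 13.4 CPM in soft libraries.

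**Figure D4:**
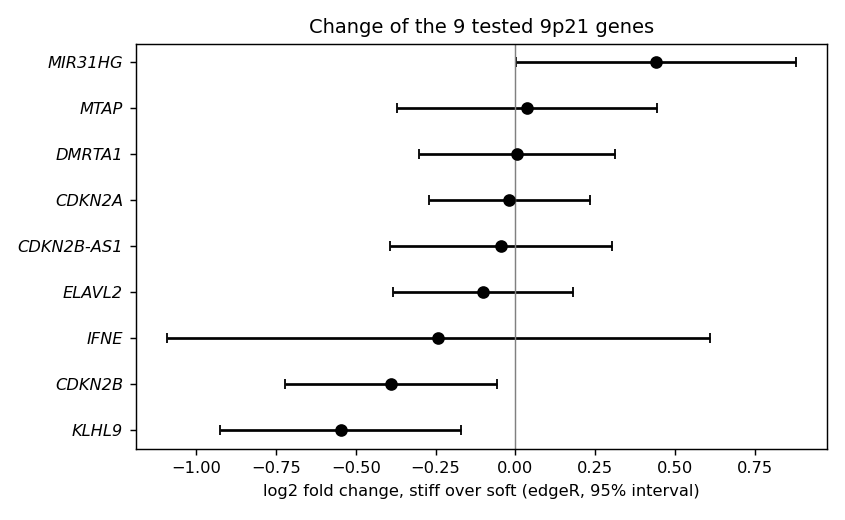
Log2 fold change of stiff over soft (x axis) with its 95% interval for each tested 9p21 gene, from the edgeR fit with 3 libraries a group. KLHL9 at −0.55 and MIR31HG at 0.44 are the extremes, and none passed after adjustment over all genes.

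Genes that work with the members gave no call either, where 0.451% of all genes tested were called. The share of all genes tested with an unadjusted edgeR p under 0.05 was 9.51%. Of 18 genes of the RB and p53 pathways 0 passed and 2 had an unadjusted edgeR p under 0.05 (median log2 fold change −0.09). The lowest adjusted p was that of CDKN1B, the inhibitor p27, at 17.0 CPM in stiff and 24.5 CPM in soft (log2 fold change −0.53, edgeR adjusted p = 0.279), and E2F1, a target of the retinoblastoma protein, averaged 47.4 CPM in stiff and 37.7 CPM in soft (adjusted p = 0.351). Of 10 genes of methionine salvage and the PRMT5 complex 0 passed and 2 had an unadjusted p under 0.05, with SMS, spermine synthase, at 17.6 CPM in stiff and 11.9 CPM in soft (edgeR adjusted p = 0.368) and AMD1, which makes the propylamine donor of polyamine synthesis, at 13.3 CPM in stiff and 18.7 CPM in soft (log2 fold change −0.49, edgeR adjusted p = 0.456). Counts were 0 of 9 for type I interferon receptor and signalling genes, 0 of 3 for other ELAV genes, 0 of 6 for other DMRT genes, 0 of 4 for KLHL9 partners and 0 of 7 tested of the 14 interferon genes, and none of these had an unadjusted edgeR p under 0.05. Of 26 other 9p genes 25 were tested, 0 passed and 3 had an unadjusted p under 0.05. RPS6, a ribosomal protein gene, had the lowest adjusted p, at 18.6 CPM in stiff and 12.3 CPM in soft (edgeR adjusted p = 0.312). Among the 13 epithelial markers 3 had an unadjusted edgeR p under 0.05, all higher in stiff, and 1 of them passed, the basal keratin KRT14, at 33.4 CPM in stiff and 20.6 CPM in soft (log2 fold change 0.69, edgeR adjusted p = 0.0281), while KRT17 averaged 29.7 CPM in stiff and 21.5 CPM in soft (adjusted p = 0.296) and KRT5 35.7 CPM in stiff and 28.6 CPM in soft (adjusted p = 0.504). Not all epithelial markers were higher in stiff: 8 of the 13 had a log2 fold change above 0, and the lowest was −0.22, for SFN. Of the 14 markers of other cell types 13 were tested, and 0 passed or had an unadjusted p under 0.05. As means over 6 libraries, per-kb levels in these lists ran from 9.69 for RB1 to 44.8 for E2F1 in the RB and p53 list, from 6.05 for AMD1 to 38.5 for SRM in methionine salvage, and from 6.36 for PLIN2 to 71.4 for LINGO2 among the other 9p genes. They ran from 10.2 for IRF9 to 39.2 for IRF7 in interferon signalling, from 11.3 for ELAVL4 to 36.7 for ELAVL3, from 17.4 for DMRTC2 to 57.6 for DMRTA2 and from 6.30 for CUL3 to 17.7 for AURKB. The genes with the pattern most like CDKN2A over the 6 libraries were TYMSOS, SRGAP2B, KLHL26, TMTC2 and TNFRSF8, with root-mean-square differences of centred log2 CPM of 0.0183, 0.0293, 0.0306, 0.0327 and 0.0333 among 31073 genes.

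Along chromosome 9 the members lie in the window with the lowest mean level. Medians of per-kb levels were taken in 25 windows of 5 Mb and set against autosomal genes of like GC. The window from 20 to 25 Mb, which holds all 10 members, stood at 0.866 ± 0.102 in stiff and 0.897 ± 0.0851 in soft (SD, n = 3 each). It was the lowest of the 25 windows in 4 of 6 libraries and among the 2 lowest in all 6. Without the members its other 27 genes stood at 0.825 ± 0.133 in stiff and 0.854 ± 0.0701 in soft, and 14 of these are the interferon alpha and omega genes. Without the interferon genes but with the members, 23 genes stood at 0.911 ± 0.0471 in stiff and 0.955 ± 0.107 in soft, and the 13 genes left without both at 0.871 ± 0.0272 in stiff and 0.927 ± 0.137 in soft. Either way the window was the lowest in 5 of 6 libraries. The list of 26 other 9p genes, most of them outside this window, had a median of 1.05 ± 0.0287 in stiff and 1.04 ± 0.0421 in soft. The window at the tip of the same arm, 0 to 5 Mb, was at 1.46 ± 0.0619 in stiff and 1.48 ± 0.0535 in soft, and the windows on either side, 15 to 20 Mb and 25 to 30 Mb, were at 1.2603 ± 0.1103 and 1.09 ± 0.150 in stiff and at 1.2039 ± 0.0981 and 0.957 ± 0.0903 in soft. Other short-arm windows were nearly as low. That from 35 to 40 Mb was at 0.977 ± 0.0168 in stiff and 1.05 ± 0.0265 in soft and lay below the members' window in stiff replicate 3, at 0.957 against 0.978. That from 25 to 30 Mb lay below it in soft replicate 1, at 0.855 against 0.983, and that from 5 to 10 Mb was at 1.06 ± 0.0210 in stiff and 1.06 ± 0.0303 in soft. As a whole the short arm had 1.07 ± 0.0311 in stiff and 1.09 ± 0.0175 in soft, and the long arm 1.44 ± 0.0185 in stiff and 1.46 ± 0.0169 in soft. In every library the long arm lay above the short arm, and the lowest long-arm value, 1.43, exceeded the highest short-arm value, 1.11. These are medians over a whole arm, and not every short-arm window was low. That from 40 to 45 Mb, with 13 genes, had the highest mean of the 25. It was at 2.08 ± 0.272 in stiff and 1.64 ± 0.232 in soft. Genes are not replicates and the 6 libraries share 1 cell line, so this is a description without a test.

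**Figure D5:**
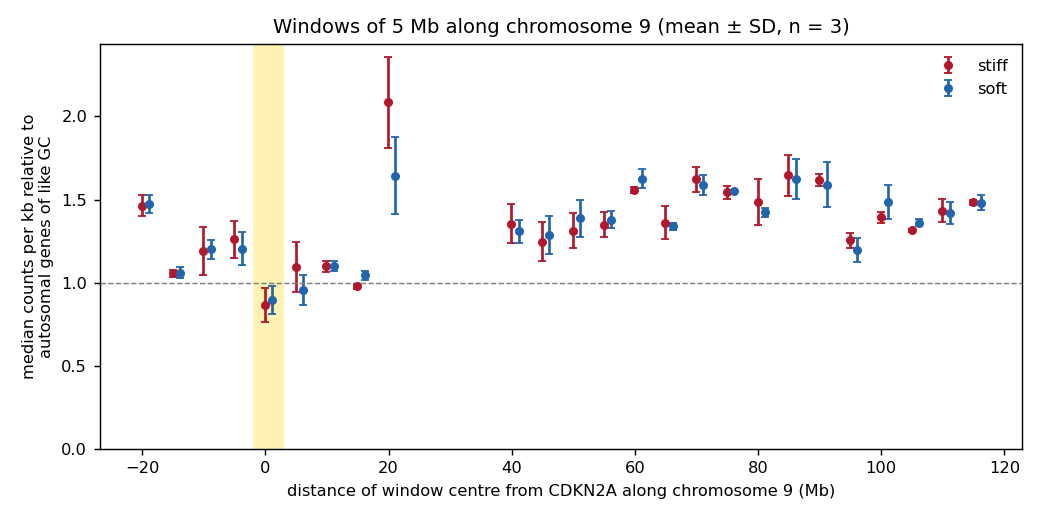
Median counts per kb relative to autosomal genes of like GC (y axis, mean ± SD of 3 libraries) in windows of 5 Mb, by distance of the window centre from CDKN2A (x axis, Mb), with stiff in red and soft in blue. The window that holds the members (yellow) is at 0.866 in stiff and 0.897 in soft libraries, under the windows of the long arm to the right.

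The members themselves did not share 1 level in this window. Against autosomal genes of like GC, MTAP was lowest at 0.338 ± 0.0383 in stiff and 0.322 ± 0.0573 in soft, and CDKN2B-AS1 had 0.714 ± 0.0700 in stiff and 0.718 ± 0.0973 in soft (SD, n = 3 each). CDKN2A, which lies between MTAP and CDKN2B, had 1.00 ± 0.0405 in stiff and 1.06 ± 0.138 in soft. CDKN2B stood at 1.31 ± 0.209 in stiff and 1.68 ± 0.513 in soft. DMRTA1 had 1.41 ± 0.123 in stiff and 1.38 ± 0.0427 in soft, and MIR31HG had 2.95 ± 0.203 in stiff and 2.18 ± 0.172 in soft. The median over the 10 was 0.972 ± 0.111 in stiff and 1.11 ± 0.0987 in soft, where that of the 14 interferon alpha and omega genes was 0.817 ± 0.227 in stiff and 0.849 ± 0.0684 in soft.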

How the data were processed

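The deposited values are raw counts of reads per gene symbol, with no normalization by the authors. The submitters' processing notes name Trim Galore 0.4.2, cutadapt 1.9.1, FastQC 0.11.7, STAR 2.6.1e, featureCounts 1.6.2, DESeq2 1.26.0 and hg38 without roles; the annotation, the strand setting and the handling of multi-mapping reads are not given in the sources used here. Vesicles were isolated by insulator-based dielectrophoresis and libraries made with a NEBNext Ultra II Directional kit, per the labels; a DNase step is not given. The labels' descriptions give 2 stiff libraries the same number, so replicates are numbered by title.

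Stiff was compared with soft over the whole table by edgeR 4.0.16 (R 4.3.3; TMM, filterByExpr, robust quasi-likelihood F test, group as the single term), with Benjamini-Hochberg adjustment over 31074 genes and a threshold of 0.05. The SE of a log2 fold change is approximate: its absolute value divided by the square root of the F statistic. Intervals use this SE and the moderated degrees of freedom of that fit. DESeq2 1.42.0 and limma-voom (limma 3.58.1) were alternatives. The edgeR step was tested on simulated counts for 30620 genes of this comparison. It called 26.2% of the genes given a 1.5-fold change, 86.4% of those given a 2-fold and 100% of those given a 4-fold change, while 3.70% of calls fell on genes left alone. Lengths, coordinates and GC content come from GENCODE release 29 (GRCh38), matched by symbol for 25594 genes (67.1%), the 10 members among them. Upstream and microRNA sequences come from RefSeq (GRCh38.p14). Named genes are all members, list genes past the threshold, the highest and lowest per-kb level of a list, and the 5 tested genes most like CDKN2A. CDKN1B, SMS, RPS6, PTPRC, KRT17 and KRT5, and the CPM of E2F1 and AMD1, were added after their values were seen. The members and lists were chosen with earlier results of these data known. The 3 pairs of libraries within each group differed by more than counting noise (chi-square per degree of freedom 1.53 to 3.86). Reads carry no molecular identifiers, so counting intervals cover counting error only.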

Additional observations from a re-analysis of the deposited data

How the results depend on the processing

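No tested member passed the threshold in 12 of 13 alternatives that gave one an adjusted p; the exception was library totals alone, with 2. The count over all genes was 140, against 4194 with library totals alone, 91 with limma-voom, 88 with DESeq2 (46 without its filter on mean count) and 54 after GC correction, and 60 to 136 when a library was left out. With the replicate number as a block it was 173 and no member passed. Deviations of same-numbered libraries from their group means had correlations of 0.00240, 0.00340 and −0.00370. Counting noise can hide a shared batch in such correlations, so whether the numbers pair the samples is not known. Signs of small fold changes turned. With library totals alone MTAP had −0.23 and DMRTA1 −0.26. When a library was left out, log2 fold changes ranged from −0.0804 to 0.0927 for CDKN2A, −0.15 to 0.0430 for CDKN2B-AS1, −0.0589 to 0.18 for MTAP, −0.0657 to 0.0489 for DMRTA1 and −0.69 to 0.0188 for IFNE. CDKN2B, KLHL9, ELAVL2 and MIR31HG kept their sign in all 14 alternatives, though MIR31HG had 0.17 with library totals alone. The median per-kb ratio of the members to the chromosome 9 median was 0.545 in stiff and 0.606 in soft; in stiff and soft it was 1.28 and 1.18 with the gene span as length, 0.799 and 0.889 against the other autosomes, 0.972 and 1.11 against autosomal genes of like GC, and 0.610 in stiff against chromosome 9 genes of like exon number. It lay at 0.522 to 0.575 in stiff and 0.577 to 0.633 in soft when a library was left out. GC correction, DESeq2 without its filter, like exon number and the window without interferon genes were chosen after seeing the data. At 3 to 15 counts, IFNB1 and IFNE could not show a moderate change. The cause of the differences between settings was not tested.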
